A study of Homo sapiens with 6 samples.

Results

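Kinesins are motor proteins that walk along microtubules, and humans carry a large family of them. Protein-coding genes were taken as kinesins here when their symbol was KIF followed by digits, with an optional letter and digit, or KIFC followed by a digit. CENPE and the kinesin-binding proteins were left out. The rule gave 42 of the 60612 genes in the count tables. KIF28P also matched by symbol but is annotated as a pseudogene and was left out. By textbook role, 15 members were placed among the mitotic kinesins, 17 among the transport kinesins and 10 in neither group.

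RNA was sequenced from SKBR3, an established human mammary epithelial cancer line with amplified ERBB2, the gene of the receptor HER2. The SKBR3_HR group holds 3 libraries of SKBR3 cells that had been kept for 30 weeks under increasing amounts of the HER2 antibody trastuzumab. The SKBR3 group holds 3 libraries of the same line with no treatment. The sources used here do not say whether the antibody was present at harvest, whether SKBR3_HR is 1 clone or a mixed population, whether the untreated cells were cultured for an equal time, or whether replicates came from separate cultures. The p-values therefore reflect variation among these libraries alone, part or all of which could be technical.

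Mitotic kinesins build the spindle, move and align chromosomes and help the daughter cells separate, and their transcripts are mostly made late in the cell cycle. Transport kinesins carry vesicles, organelles and protein complexes, mainly towards the cell surface and along cilia. A few members do neither, and act for example as regulators of cilia or as scaffolds without motor activity.

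Levels are given in CPM, counts for each M reads of the scaled library total, and the library totals were 71.0, 82.9 and 81.7 M counts in SKBR3_HR and 72.4, 71.8 and 72.1 M in SKBR3. A count of 0 allows up to 0.0372 to 0.0428 CPM in SKBR3_HR and 0.0406 to 0.0412 CPM in SKBR3, for counting error alone. A gene was called higher or lower when its Benjamini-Hochberg adjusted p, over all 17854 tested genes, was below 0.05 in edgeR's quasi-likelihood test. Log2 fold changes are SKBR3_HR minus SKBR3, with their standard error (SE). All 6 libraries had luminal markers of the line, with KRT19 at 3288 ± 194 CPM in SKBR3_HR and 2842 ± 151 CPM in SKBR3 (SD, n = 3 each). Of 8 mammary epithelial markers, 3 were called higher (ERBB2 0.48, KRT7 0.40, KRT19 0.21), 3 lower and 2 not called. The share called was 75%, against 49.3% of all tested genes. TFAP2B fell most (-1.43, adjusted p = 2.67e-06), with 2.29 CPM in SKBR3_HR and 6.16 CPM in SKBR3. After the correction for GC content and length described below, 1 was higher and 5 lower, or 75% called against 38.0% of all genes. Among those lower were KRT19 (-0.21) and TFAP2B (-1.46). Markers of fibroblasts, immune, endothelial and basal cells, 13 in all, summed to 127, 157 and 153 CPM in the SKBR3_HR libraries, against 57.2, 60.7 and 62.2 CPM in the SKBR3 libraries. CDH5 and CD68 made up most of that sum, while PTPRC, the pan-leukocyte marker, and PECAM1, an endothelial marker, stayed at or below 0.31 CPM in every library. The basal keratin KRT5 was at 0.614, 9.07 and 8.26 CPM in SKBR3_HR replicates 1, 2 and 3, against 0.687 to 1.27 CPM in SKBR3. Another of the 13 markers had the largest log2 fold change of this list, 5.53, and was not called. CDH5 (1.59, adjusted p = 2.32e-11) and CD68 (1.54, adjusted p = 1.03e-09) were called higher in SKBR3_HR. The basal regulator TP63 (-1.43, adjusted p = 0.0208) and the fibroblast collagen COL1A1 (-0.87, adjusted p = 4.11e-04) were called lower in SKBR3_HR. TP63 averaged 0.442 CPM in SKBR3_HR and 1.19 CPM in SKBR3, and its groups overlapped. With the same correction, CDH5 (1.40) and CD68 (1.20) stayed higher and COL1A1 (-1.06) lower. TP63 was then not called (adjusted p = 0.0531). The part of these other markers in the kinesin results was not tested. Without SKBR3_HR replicate 1, which was low in KRT5, 10 mitotic and 7 transport kinesins were called lower, as many as with it. That comparison cannot test the part of these markers. It keeps the libraries higher in KRT5, and CDH5 and CD68 were higher in every SKBR3_HR library than in any SKBR3 library.

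Of the 42 kinesins, 37 had enough counts to be tested. KIF2B, KIF19 and KIF25 had no count in any library, KIF1A had 12 counts in SKBR3_HR and 12 in SKBR3 over 3 libraries each, and KIF26B had 4 and 4. Of the tested kinesins, 7 were higher and 17 lower in SKBR3_HR, and 13 were not called. Over all tested genes 49.3% were called, 23.9% higher and 25.4% lower. The median log2 fold change was -0.28 over the 37 kinesins and -0.01 over all tested genes.

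The split by role was uneven. Among the 14 tested mitotic kinesins, 10 were lower, 2 were higher and 2 were not called, with a median of -0.64. Among the 16 tested transport kinesins, 7 were lower, 4 were higher and 5 were not called, with a median of -0.15. Of the 7 tested members in neither class, 1 was higher and 6 were not called, with a median of 0.00. Without SKBR3_HR replicate 1 the transport median was -0.42. That median lies in a gap between falling and rising members, so a sign change in a single member can move it. KIF17, near the floor at 0.457, 0 and 0.150 CPM in the SKBR3_HR libraries, ranged from -0.81 to 1.69 over the settings tried. In bulk RNA, fewer cells in mitosis and less of a transcript per cell cannot be told apart.

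**Figure D1:**
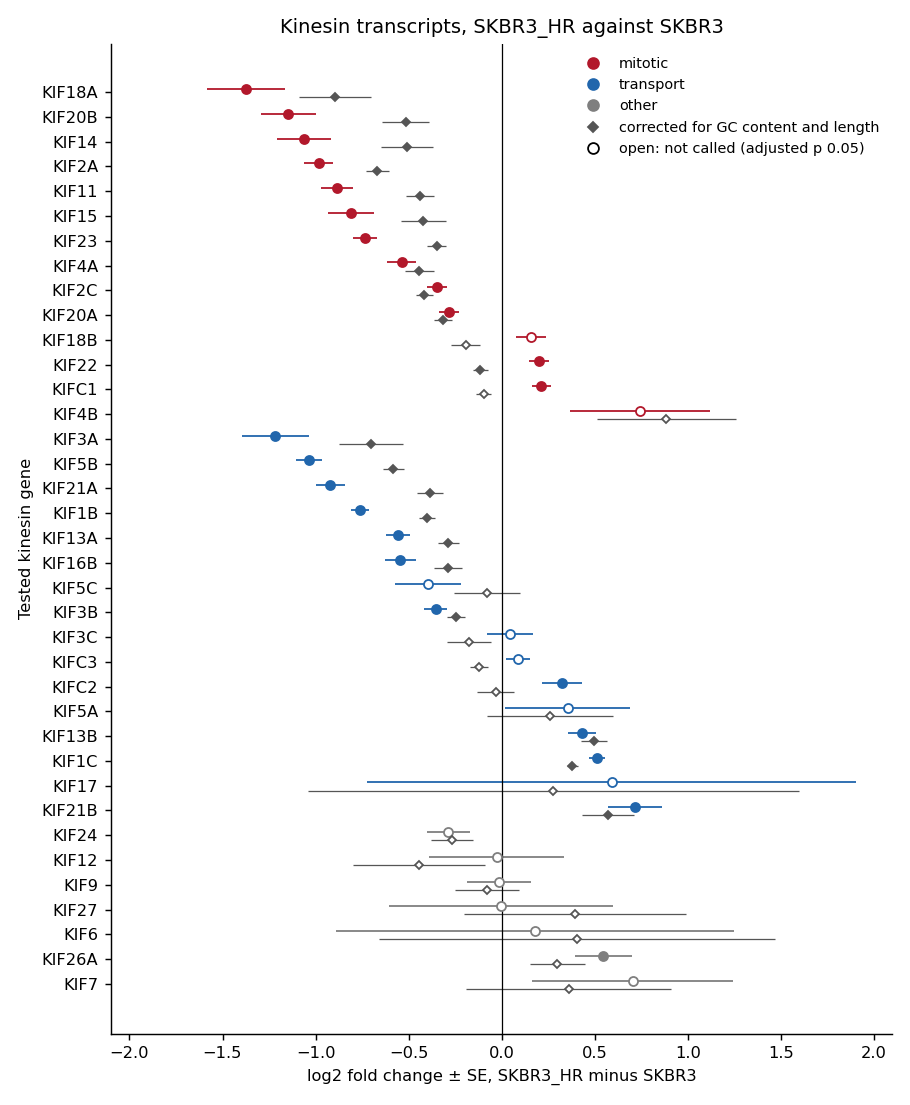
Log2 fold change (SKBR3_HR minus SKBR3, horizontal axis) with its SE for each of the 37 tested kinesins, coloured by role; small grey diamonds are the same after correction for GC content and length, and open symbols were not called. Of the 14 mitotic kinesins, 10 lie clearly left of 0, while transport kinesins reach from -1.22 for KIF3A to 0.72 for KIF21B.

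Fold changes in these libraries followed base composition, and kinesin genes span a wide range of it, from 34.1% GC in KIF20B to 69.3% in KIF26A. The level of each gene in a library was set against its own mean over the 6 libraries. That deviation rose with GC content by 0.148 to 0.221 log2 units per 10% GC in SKBR3_HR libraries. In SKBR3 libraries it changed by -0.233 to -0.127 units. Deviations from a shared mean cancel over the libraries, so the opposite signs describe a difference between the groups, not a separate trend in each. Over 13569 coding genes the fold change and GC content had a Spearman rho of 0.57. Over the 37 tested kinesins, which share the same 6 libraries, Pearson's r was 0.81 and rho 0.81; over the 14 mitotic members r was 0.80, and over the 16 transport members 0.86. A second fit removed the trend on GC content and exonic length from each library, and it is called the corrected fit here. It removes any real change that goes with GC content too. In the corrected fit 38.0% of all genes were called, 18.1% higher and 19.9% lower.

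All 10 mitotic kinesins that were lower remained lower in the corrected fit. KIF22 also became lower there, so that 11 of 14 were lower, none was higher, and the median was -0.42. The transport kinesins had 7 lower and 3 higher in the corrected fit, with a median of -0.15. Over all 37 kinesins, 18 were lower and 3 higher. Between the corrected fold change and GC content, r was still 0.49 and rho 0.58. Over the mitotic members r was 0.41 and rho 0.74, and over the transport members r was 0.65 and rho 0.73.

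**Figure D2:**
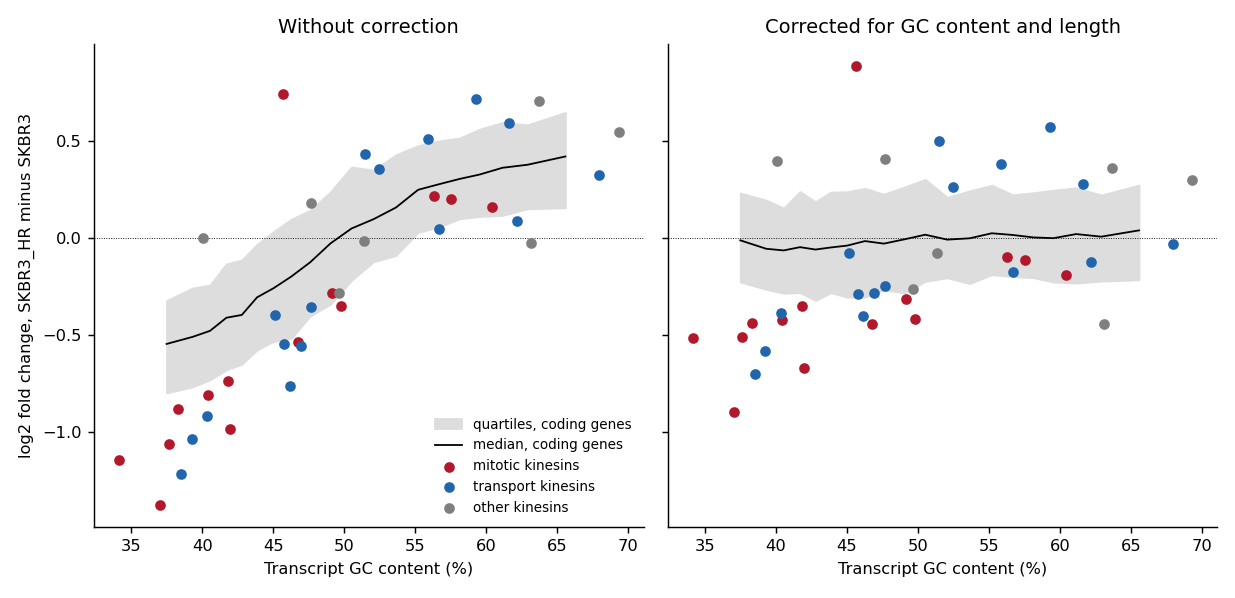
Log2 fold change (SKBR3_HR minus SKBR3, vertical axis) against transcript GC content in percent for the 37 tested kinesins, without correction on the left and in the corrected fit on the right; the line and band give the median and quartiles of coding genes in bins of GC content. On the left the kinesins follow the coding genes upward with r = 0.81, mostly below the line for mitotic members; on the right the line is near 0 and the mitotic median is -0.42.

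A pair of short motifs was frequent in the promoters of mitotic members. RefSeq windows of GRCh38.p14, 250 bases before to 50 after each annotated start, were found for 34 of the 42 kinesins. They were searched on both strands for TTTGAA, the hexamer of the cell cycle homology region bound by the DREAM and MuvB complexes, and for CCAAT, the box bound by NF-Y. The hexamer was present in 10 of 15 mitotic genes, in 1 of 12 transport genes (KIF5B) and in 0 of 7 others, against 18.2% of all genes with a window. CCAAT was present in 11 of 15 mitotic, 4 of 12 transport and 3 of 7 other genes, against 39.7% of all genes. Both occurred in 9 of 15 mitotic genes and in 7.26% of all genes, and no match of one overlapped a match of the other.

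The stretches below run from 150 bases before the annotated start to 15 bases from it, in the direction of the gene, with matches to either motif on either strand in capitals. KIF18A, KIF14 and KIF11 are shown as members that fell strongly, and KIFC1 as a member with both motifs that was higher in the uncorrected fit. KIF2C is shown as a member that fell and has no exact match to either motif, and KIF5B as the transport member that has both. They lie, in this order, at chr11:28108142-28108306 on the minus strand, chr1:200620737-200620901 on the minus strand, chr10:92592980-92593144 on the plus strand, chr6:33391673-33391837 on the plus strand, chr1:44739687-44739851 on the plus strand and chr10:32056411-32056575 on the minus strand.
KIF18A: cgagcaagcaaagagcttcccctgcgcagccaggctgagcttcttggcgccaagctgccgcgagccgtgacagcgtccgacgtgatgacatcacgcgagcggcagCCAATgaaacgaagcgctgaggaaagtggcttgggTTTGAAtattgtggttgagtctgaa
KIF14: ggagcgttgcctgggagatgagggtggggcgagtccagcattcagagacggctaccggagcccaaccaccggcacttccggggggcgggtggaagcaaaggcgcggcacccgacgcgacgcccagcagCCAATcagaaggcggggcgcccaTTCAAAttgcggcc
KIF11: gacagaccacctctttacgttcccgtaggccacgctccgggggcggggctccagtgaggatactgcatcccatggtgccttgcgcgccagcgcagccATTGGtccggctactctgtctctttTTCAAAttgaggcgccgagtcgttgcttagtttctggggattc
KIFC1: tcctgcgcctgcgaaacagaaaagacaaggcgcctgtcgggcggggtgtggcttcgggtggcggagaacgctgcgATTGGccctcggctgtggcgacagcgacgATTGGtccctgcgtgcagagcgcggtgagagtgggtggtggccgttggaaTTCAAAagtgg
KIF2C: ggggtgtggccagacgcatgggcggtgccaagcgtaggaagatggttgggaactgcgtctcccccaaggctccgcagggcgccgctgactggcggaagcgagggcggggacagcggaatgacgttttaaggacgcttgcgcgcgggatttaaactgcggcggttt
KIF5B: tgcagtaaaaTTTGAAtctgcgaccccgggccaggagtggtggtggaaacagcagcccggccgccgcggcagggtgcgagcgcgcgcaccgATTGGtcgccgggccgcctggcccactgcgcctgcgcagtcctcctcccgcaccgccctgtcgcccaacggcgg

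Where both motifs occurred in the stretches of KIF18A, KIF14, KIF11 and KIFC1, the CCAAT box lay upstream and the hexamer near the start. In KIF18A the hexamer spanned bases -10 to -5 and the CCAAT box -45 to -41, counted from 0 at the annotated start. KIF5B had the opposite order, with the hexamer at -140 to -135 and the CCAAT box at -59 to -55. Of the 10 mitotic genes with the hexamer, 7 were lower in the uncorrected fit, KIFC1 was higher, and KIF18B and KIF4B were not called. Of the 4 tested mitotic genes without it, KIF2A, KIF2C and KIF20A were lower and KIF22 was higher. In the corrected fit the same 7 with the hexamer were lower, and KIFC1, KIF18B and KIF4B were not called. All 4 without it were then lower. A match describes the letters of the window and is not a binding site. Only exact matches were searched, so a gene counted here as without the hexamer may still hold a variant of it.

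**Figure D3:**
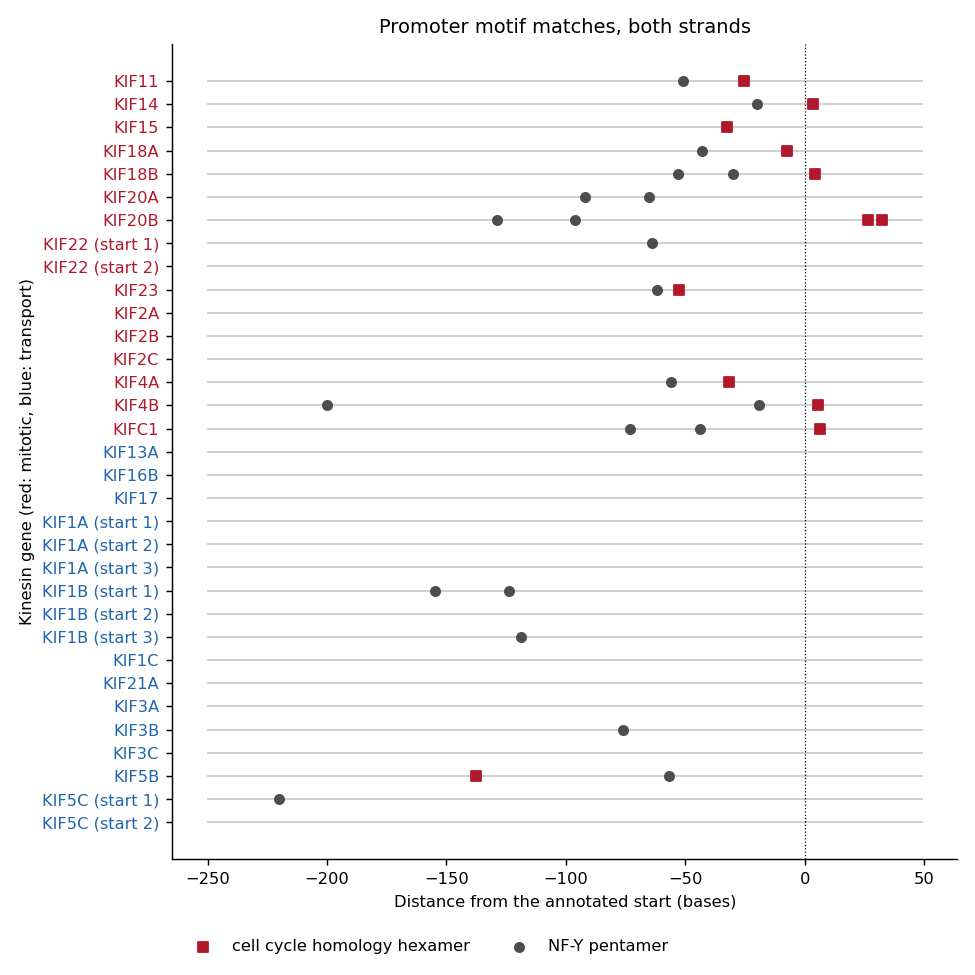
Positions of the hexamer (squares) and the CCAAT box (circles) along each promoter window of the mitotic (red names) and transport (blue names) kinesins, in bases from the annotated start on the horizontal axis; genes with several annotated starts have a row for each. The hexamer is in 10 of 15 mitotic genes, mostly close to the start, and in 1 of 12 transport genes.

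The kinesins that assemble the spindle did not move together in the uncorrected fit. KIF11, the tetrameric motor that pushes spindle poles apart, was at 19.7, 17.8 and 16.0 CPM in SKBR3_HR libraries, against 34.9, 31.6 and 32.2 CPM in SKBR3 libraries. Its groups did not overlap, and its log2 fold change was -0.88 (SE 0.0858, adjusted p = 3.1e-07), -0.44 in the corrected fit. KIF15, which can keep a spindle bipolar when KIF11 is blocked, was at 5.14, 5.22 and 5.32 CPM in SKBR3_HR and 9.48, 8.89 and 9.11 CPM in SKBR3. It too was lower in every SKBR3_HR library, by a fold change of -0.81 (adjusted p = 4.62e-05). KIF15 overlaps TMEM42 on the same strand, so its counts are uncertain to that extent.

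KIFC1 walks towards minus ends, focuses spindle poles and clusters extra centrosomes. It was at 149, 146 and 137 CPM in SKBR3_HR libraries, against 124, 120 and 128 CPM in SKBR3 libraries. The groups did not overlap and the fold change was 0.21 (SE 0.0493, adjusted p = 0.00161). In the corrected fit it was -0.10 (adjusted p = 0.0812), so the direction of KIFC1, whose transcripts are 56.3% GC, depends on that correction.

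Motors that act on chromosomes or on the plus ends of spindle microtubules held the largest fall of the family. KIF18A, which damps the oscillation of chromosomes at the spindle equator, was at 2.81, 2.09 and 1.70 CPM in SKBR3_HR, against 6.83, 5.16 and 5.11 CPM in SKBR3. Every SKBR3_HR library was below every SKBR3 library, and the mean in SKBR3 was 2.59 times that in SKBR3_HR (log2 fold change -1.37, SE 0.209, adjusted p = 3.69e-05; -0.90 corrected). KIF18A lies on chromosome 11 between 28020620 and 28108308 on hg38, minus strand, and overlaps METTL15 on the other strand. Its paralog KIF18B, which controls astral microtubules, was at 27.2, 26.2 and 28.7 CPM in SKBR3_HR and 23.96, 26.5 and 23.0 CPM in SKBR3. Those groups overlapped, and KIF18B was not called, with a fold change of 0.16 (adjusted p = 0.111). With upper quartile scaling KIF18B was called higher (0.21, adjusted p = 0.0375), and in the corrected fit it was at -0.19 (adjusted p = 0.0616).

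The chromokinesins KIF4A and KIF22 bind chromosome arms. KIF4A was at 71.6, 55.2 and 64.1 CPM in SKBR3_HR libraries and at 95.3, 92.0 and 89.4 CPM in SKBR3 libraries. It was lower without overlap, with a fold change of -0.54 (adjusted p = 6.99e-05; -0.44 corrected). KIF4B, a near-identical intronless copy whose reads may be confused with those of KIF4A, stayed at 0.855 to 1.18 CPM in SKBR3_HR and 0.448 to 0.852 CPM in SKBR3 and was not called (0.74, adjusted p = 0.118). Without SKBR3 replicate 1, its highest SKBR3 library, it was called higher (1.07, adjusted p = 0.0482).

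KIF22 was at 165, 172 and 155 CPM in SKBR3_HR and 141, 136 and 151 CPM in SKBR3. The groups came close without overlapping, and the fold change was 0.20 (adjusted p = 0.00478). In the corrected fit it was -0.11 and called lower (adjusted p = 0.0382), a reversal for a transcript of 57.5% GC.

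The kinesin-13 members do not walk but take microtubules apart from their ends. KIF2A was at 30.6, 27.1 and 28.6 CPM in SKBR3_HR, against 61.5, 58.1 and 51.0 CPM in SKBR3. It fell by 0.98 on the log2 scale (SE 0.0786, adjusted p = 3.81e-08; -0.67 corrected), with no overlap, although IPO11 overlaps it on the same strand. KIF2C, which corrects faulty attachments at the centromere, was at 101, 99.99 and 96.7 CPM in SKBR3_HR and 133, 118 and 129 CPM in SKBR3. Its fall of -0.35 was smaller (adjusted p = 3.88e-05), and at -0.42 in the corrected fit it was not reduced by the correction. KIF2B, the third KIF2 gene, had no count.

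All 4 motors of the late spindle and of cytokinesis were lower. KIF14, which recruits citron kinase to the midbody, was at 4.62, 4.45 and 6.24 CPM in SKBR3_HR libraries, against 11.1, 11.1 and 9.83 CPM in SKBR3 libraries, a fold change of -1.06 (adjusted p = 1.37e-05). KIF20B, a midbody motor, was at 5.24, 4.09 and 5.75 CPM in SKBR3_HR, against 12.4, 10.9 and 10.1 CPM in SKBR3, a fold change of -1.15 (adjusted p = 5.94e-06). Neither gene's groups overlapped, and in the corrected fit the fold changes were -0.51 for KIF14 and -0.52 for KIF20B, both still called.

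KIF23, the motor of the centralspindlin complex, was at 35.2, 33.3 and 33.5 CPM in SKBR3_HR and 59.1, 55.8 and 55.0 CPM in SKBR3. Its replicates were tight and its groups far apart, with a fold change of -0.74 (SE 0.0641, adjusted p = 9.43e-08; -0.35 corrected). KIF20A, which carries the chromosomal passenger complex to the midzone, was at 76.8, 70.9 and 72.4 CPM in SKBR3_HR and 91.9, 84.6 and 91.2 CPM in SKBR3. It had the smallest fall of the 10, -0.28 (adjusted p = 3.35e-04), and -0.32 in the corrected fit.

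**Figure D4:**
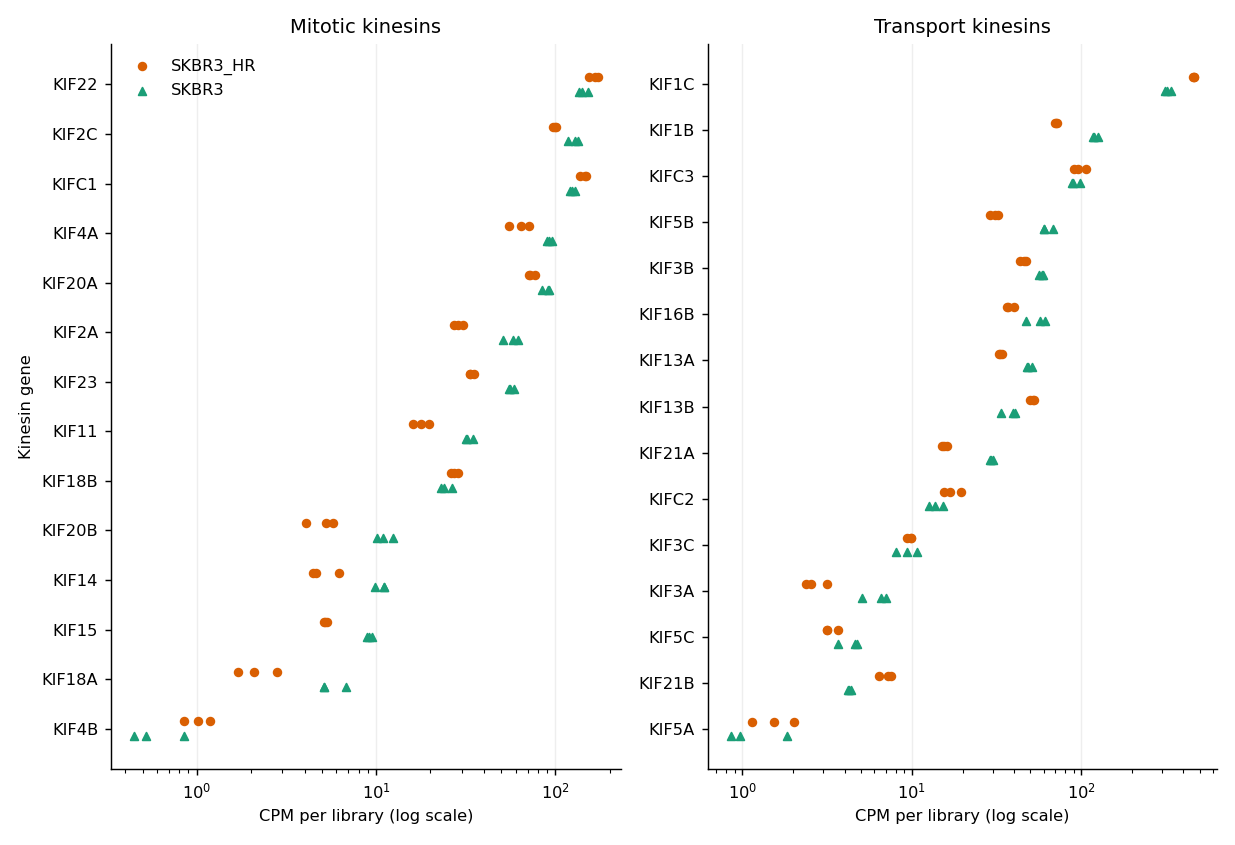
CPM in each library on a log axis for the mitotic (left) and transport (right) kinesins with a group mean of at least 1 CPM, SKBR3_HR as circles above SKBR3 as triangles, sorted by the SKBR3 mean. KIF18A sits at 1.70 to 2.81 CPM in SKBR3_HR against 5.11 to 6.83 CPM in SKBR3, and KIF1C stands above all others at 454 to 463 CPM in SKBR3_HR against 311 to 337 CPM in SKBR3.

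The transport kinesins divided within their subfamilies. In kinesin-1, the conventional kinesin that moves mitochondria, lysosomes and vesicles, only the ubiquitous heavy chain KIF5B was abundant. KIF5B was at 30.9, 28.7 and 32.3 CPM in SKBR3_HR libraries, against 67.6, 60.3 and 60.4 CPM in SKBR3 libraries. No library of one group came near the other, and the fold change was -1.03 (SE 0.0709, adjusted p = 7.09e-09; -0.58 corrected). KIF5B lies on chromosome 10 between 32009010 and 32056431 on hg38, minus strand.

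The mostly neuronal heavy chains were low. KIF5C was at 3.64, 3.13 and 3.15 CPM in SKBR3_HR and 3.68, 4.75 and 4.63 CPM in SKBR3, without overlap but not called (-0.40, adjusted p = 0.0772). Without SKBR3 replicate 1 it was called lower (-0.50, adjusted p = 0.0445). KIF5A was at 1.14 to 2.01 CPM in SKBR3_HR and 0.852 to 1.84 CPM in SKBR3, with overlap. Of the 4 light chains, which join kinesin-1 to its cargo, KLC3 was called higher (0.38, adjusted p = 0.00666) and the others were not called. KLC1 averaged 42.8 ± 0.463 CPM in SKBR3_HR and 45.7 ± 3.3 CPM in SKBR3 (adjusted p = 0.283), and KLC2 had a fold change of 0.09 (adjusted p = 0.314). After correction KLC2 (-0.25, adjusted p = 0.00212) and KLC4 (-0.52, adjusted p = 9.81e-04) were lower, and KLC3 was at -0.01 and not called. KLC3 and KLC4 were named after their values were seen.

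Kinesin-2 drives transport along cilia as a trimer of KIF3A, KIF3B or KIF3C and the adaptor KIFAP3. KIF3A was at 3.14, 2.55 and 2.36 CPM in SKBR3_HR, against 6.58, 7.005 and 5.09 CPM in SKBR3, a fold change of -1.22 (SE 0.183, adjusted p = 3.28e-05; -0.70 corrected). Its more abundant partner KIF3B was at 45.7, 43.4 and 46.8 CPM in SKBR3_HR and 58.3, 59.5 and 56.1 CPM in SKBR3, a fold change of -0.36 (adjusted p = 1.15e-04). Both motors were lower in every SKBR3_HR library, and both remained lower in the corrected fit.

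KIF3C, the alternative partner of KIF3A, was at 9.89, 9.34 and 9.86 CPM in SKBR3_HR and 8.10, 10.7 and 9.39 CPM in SKBR3. It overlapped fully and was not called (0.04, SE 0.124, adjusted p = 0.802). KIFAP3 averaged 14.7 ± 1.64 CPM in SKBR3_HR and 23.3 ± 2.59 CPM in SKBR3, a fold change of -0.66 (adjusted p = 4.97e-05), but missed the threshold in the corrected fit (-0.26, adjusted p = 0.0532). KIF17, a homodimeric motor of the same subfamily, was at 0 to 0.457 CPM in SKBR3_HR and 0 to 0.275 CPM in SKBR3.

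Kinesin-3 motors, fast carriers of vesicles and endosomes, went in both directions. KIF1C, which moves integrin-bearing vesicles, was the most abundant kinesin by counts at 454, 462 and 463 CPM in SKBR3_HR, against 311, 319 and 337 CPM in SKBR3. The groups stood well apart and the fold change was 0.51 (SE 0.0431, adjusted p = 6.57e-08; 0.38 corrected). KIF13B was at 51.7, 49.5 and 52.5 CPM in SKBR3_HR, against 40.5, 39.7 and 33.7 CPM in SKBR3, and was higher by 0.43 (adjusted p = 1.39e-04; 0.50 corrected).

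The other expressed members of kinesin-3 were lower. KIF1B, which moves mitochondria and precursors of synaptic vesicles, was at 71.8, 70.0 and 70.6 CPM in SKBR3_HR, against 125, 117 and 118 CPM in SKBR3 (-0.76, SE 0.0492, adjusted p = 3.6e-09; -0.40 corrected). KIF13A, a motor of recycling endosomes, was at 33.2, 32.8 and 34.0 CPM in SKBR3_HR, against 47.6, 51.3 and 48.3 CPM in SKBR3 (-0.56, adjusted p = 2.5e-06; -0.29 corrected). KIF16B, which binds early endosomes, was at 39.9, 36.9 and 36.5 CPM in SKBR3_HR, against 57.1, 60.95 and 47.3 CPM in SKBR3 (-0.55, adjusted p = 4.94e-05; -0.29 corrected). None of these 3 overlapped between groups. Thus the paralogs KIF13A and KIF13B moved in opposite directions, as did KIF1B and KIF1C, and each of the 4 kept its call after correction.

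The kinesin-4 paralogs KIF21A and KIF21B, which also restrain microtubule growth, went in opposite directions too. KIF21A was at 16.1, 15.4 and 15.1 CPM in SKBR3_HR, against 30.1, 28.7 and 29.4 CPM in SKBR3 (-0.92, SE 0.0769, adjusted p = 6.06e-08; -0.39 corrected). KIF21B was at 7.19, 7.49 and 6.37 CPM in SKBR3_HR, against 4.25, 4.36 and 4.21 CPM in SKBR3 (0.72, SE 0.144, adjusted p = 5.09e-04; 0.57 corrected). KIF21A transcripts are 40.4% GC and those of KIF21B 59.3% GC, and both kept their call in the corrected fit.

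Of the minus-end directed transport motors, KIFC3, which acts at epithelial junctions, was at 90.1, 107 and 95.4 CPM in SKBR3_HR and 87.6, 89.4 and 98.2 CPM in SKBR3. It overlapped and was not called (0.09, adjusted p = 0.291), but was lower with correction for GC content alone (-0.29, adjusted p = 9e-05). KIFC2 was at 15.6, 19.5 and 16.8 CPM in SKBR3_HR, against 13.6, 15.2 and 12.6 CPM in SKBR3, a fold change of 0.32 (adjusted p = 0.0193). KIFC2 kept that call in 11 of 22 other settings, lost it with the same sign in 8 and turned sign in 3. The call did not hold in the corrected fit (-0.03, adjusted p = 0.849). It was also lost without SKBR3_HR replicate 2 (0.23, adjusted p = 0.124), SKBR3 replicate 1 (0.31, adjusted p = 0.0557) or SKBR3 replicate 3 (0.26, adjusted p = 0.0821).

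Among members of neither class, KIF26A, which lacks motor activity, was at 5.92, 5.39 and 6.06 CPM in SKBR3_HR, against 3.66, 4.05 and 4.19 CPM in SKBR3. It was higher by 0.55 (adjusted p = 0.00687) without overlap, and was not called in the corrected fit (0.30, adjusted p = 0.132). KIF24, which restrains the growth of cilia, was at 9.33, 10.7 and 9.34 CPM in SKBR3_HR and 11.98, 10.6 and 13.2 CPM in SKBR3 and just missed the threshold (-0.29, adjusted p = 0.0531). KIF24 was called lower in 8 of 22 other settings, among them without SKBR3_HR replicate 2 (-0.35, adjusted p = 0.0428) or SKBR3 replicate 2 (-0.36, adjusted p = 0.0283). The other cilium-related members were low. KIF9 averaged 3.98 ± 0.326 CPM in SKBR3_HR and 4.01 ± 0.54 CPM in SKBR3, and KIF7, KIF12, KIF27 and KIF6 had group means below 1 CPM. One library set the KIF7 mean in SKBR3_HR, with 1.67 CPM in replicate 1 against 0.359 and 0.424 CPM in replicates 2 and 3.

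Counted by separation alone, 8 kinesins were higher in all SKBR3_HR libraries than in any SKBR3 library and 18 were lower in all of them. Over all tested genes, 28.3% and 29.2% separated in these directions. The 8 are the 7 called higher and KIF4B, and the 18 are the 17 called lower and KIF5C.

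Compared between genes per length, the order of abundance at the top of the family differed between the groups. On the deposited FPKM scale, KIF1C had the highest level in SKBR3_HR at 45.6, 46.2 and 46.35 FPKM, followed by KIFC1 at 42.3, 41.2 and 38.8, KIF22 at 33.1, 34.1 and 30.8 and KIF2C at 23.9, 23.5 and 22.7 FPKM. In SKBR3, KIFC1 led at 37.2, 35.8 and 37.6 FPKM, followed by KIF1C at 32.9, 33.7 and 35.0, KIF2C at 33.1, 29.25 and 31.4 and KIF22 at 29.6, 28.6 and 31.3 FPKM. The 4 genes did not overlap in SKBR3_HR, whereas in SKBR3 KIF1C overlapped KIF2C, and KIF2C overlapped KIF22. No correction for GC content was applied to this order. In the corrected fit KIF22 (0.20 to -0.11) and KIFC1 (0.21 to -0.10) turned sign. KIF5B was at 4.54, 4.20 and 4.72 FPKM in SKBR3_HR and 10.5, 9.31 and 9.16 FPKM in SKBR3.

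Summed over members, mitotic kinesins made up 695, 664 and 652 CPM in SKBR3_HR libraries, against 805, 759 and 784 CPM in SKBR3 libraries. Transport kinesins made up 875, 889 and 887 CPM in SKBR3_HR and 863, 869 and 866 CPM in SKBR3. The ratio of mitotic to transport sums was 0.795, 0.748 and 0.735 in SKBR3_HR and 0.933, 0.873 and 0.906 in SKBR3, and these did not overlap. The transport sum rests on KIF1C, which held 52.0 ± 0.178% of it in SKBR3_HR and 37.2 ± 1.49% in SKBR3 (SD, n = 3 each). Without KIF1C, a choice made after its values were seen, the transport sum was 424 ± 3.07 CPM in SKBR3_HR and 543 ± 12.9 CPM in SKBR3. KIF22 and KIFC1 together held 45.9 ± 1.61% of the mitotic sum in SKBR3_HR and 34.1 ± 1.4% in SKBR3. Both genes turned sign in the corrected fit, and the sums and their ratio carry no such correction.

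**Figure D5:**
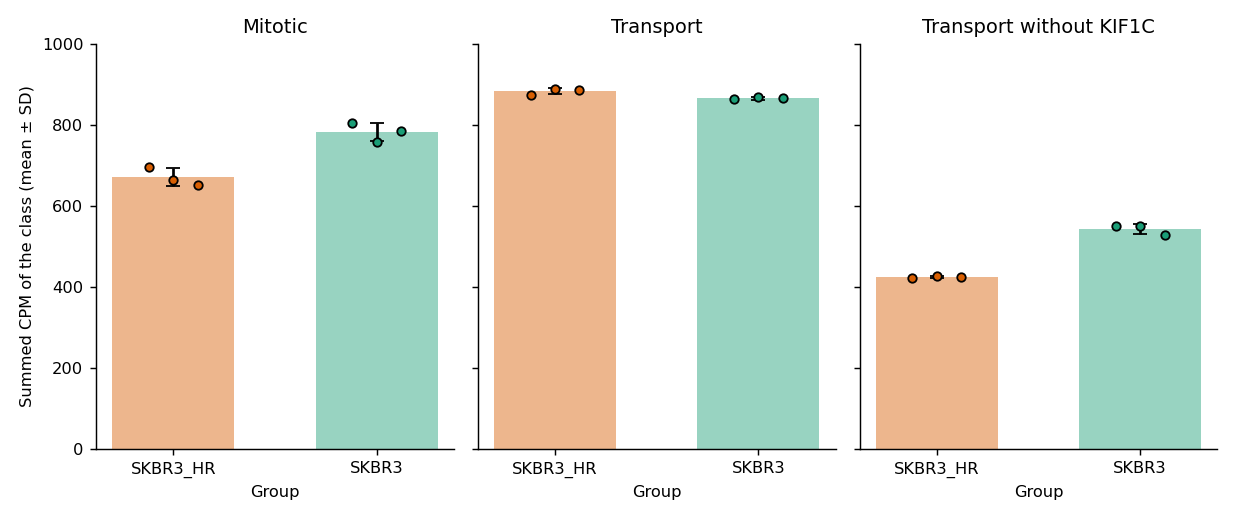
Summed CPM of the mitotic kinesins, of the transport kinesins and of the transport kinesins without KIF1C, with bars and error bars for the mean ± SD of 3 libraries and points for libraries, SKBR3_HR left of SKBR3. The mitotic sum averages 670 CPM in SKBR3_HR against 783 CPM in SKBR3, and the transport sum is 884 against 866 CPM with KIF1C but 424 against 543 CPM without it.

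Genes that work with the mitotic kinesins were mostly lower as well. CENPE, a kinetochore kinesin outside the symbol rule, was at 5.68, 5.15 and 5.65 CPM in SKBR3_HR, against 16.3, 13.01 and 13.2 CPM in SKBR3 (-1.37, adjusted p = 1.56e-07; -0.69 corrected). STARD9, another mitotic kinesin outside the rule, was below 0.5 CPM in every library and not called. Of 33 spindle, kinetochore and cytokinesis partners, 25 were lower, 1 was higher (NUMA1) and 7 were not called, with a median of -0.53. The share called was 78.8%, against 49.3% of all tested genes. The largest falls were in ECT2, the activator of the cytokinetic RHOA switch (-1.30), ASPM, a spindle pole protein (-1.17), KNL1, a kinetochore scaffold (-1.11), and the proliferation marker MKI67 (-1.11). CKAP5, a microtubule polymerase, was at -0.99. Corrected values of these 5 were -0.83, -0.53, -0.48, -0.87 and -0.65 in the same order, and the list had 26 lower, 1 higher and a median of -0.39. MKI67 averaged 104 ± 5.68 CPM in SKBR3_HR and 225 ± 3.95 CPM in SKBR3, and how far the mitotic kinesins move with the share of dividing cells was not tested.

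Regulators of cell cycle transcription went both ways. With 95% called, against 49.3% of all tested genes, 13 of 20 were lower, 6 higher and 1 not called. Among them CDKN1A, an inhibitor of cyclin-dependent kinases, was lower (-0.90), as were RBL1 (-0.70) and E2F5 (-1.10) of the pocket protein and E2F families. In the corrected fit 10 were lower and 1 higher, or 55% called against 38.0% of all genes. Of 16 tubulins, the subunits of the track itself, 4 were lower, 2 higher and 10 not called, with a median of 0.01. The 37.5% called was below the 49.3% of all tested genes, while in the corrected fit 50% was called against 38.0%. TUBB4B was higher (0.22), with TUBB6 (-0.45), TUBG2 (-0.38) and TUBE1 (-0.59) lower. In the corrected fit 8 tubulins were lower and none higher; TUBB4B turned to -0.20, and TUBE1 was no longer called (-0.12, adjusted p = 0.563).

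Of 23 tested light chains, adaptors and cofactors of transport kinesins, 7 were higher, 10 lower and 6 not called. The share called was 73.9%, against 49.3% of all tested genes. MAPK8IP1, a scaffold that links kinesin-1 to cargo, was the largest rise, with 33.9 ± 0.894 CPM in SKBR3_HR and 16.5 ± 1.05 CPM in SKBR3 (1.04, adjusted p = 1.7e-08; 0.64 corrected). TRAK2 and RHOT1, which attach mitochondria to KIF5B, were lower, at 16.6 ± 0.694 and 12.7 ± 1.34 CPM in SKBR3_HR against 32.3 ± 0.313 and 21.8 ± 2.61 CPM in SKBR3. MAP7D3, which loads kinesin-1 onto microtubules, was lower by a fold change of -0.68. The opposing motor dynein and its cofactor dynactin had 11 of 26 lower, 3 higher and 12 not called, with a median of -0.06. This list's 53.8% called was near the 49.3% of all tested genes, while in the corrected fit 65.4% was called against 38.0%. Lower there were the cargo adaptors HOOK3 (-0.89) and HOOK1 (-0.72), the intermediate chain DYNC1I2 (-0.68) and the dynactin subunit DCTN6 (-0.62). Corrected values were -0.25, -0.22, -0.39 and -0.36 in the same order, all still called, and the list had 13 lower and 4 higher. The light intermediate chain DYNC1LI1, named after its values were seen, was lower in the uncorrected fit (-0.17) and higher in the corrected one (0.18).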

How the data were processed

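RNA-seq libraries, 6 in all, were used, 3 SKBR3_HR and 3 SKBR3, grouped by title. Per the labels' protocols, RNA was column-purified and 1 µg per library went into a directional kit. The authors deposited raw counts per gene (60612 genes) and FPKM, which is scaled by length and library size, for 33686 of them. STAR 2.4.2a and hg38 were used, per the submitters' processing notes; for the counting tool, its strand setting and the annotation, nothing is stated in the sources used here, and overlapping genes cannot be told apart (10 tested kinesins overlap another tested gene, 2 on the same strand). Biotypes, positions, GC content and exonic lengths came from GENCODE 29.

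Counts were tested in R 4.3.3 with edgeR 4.0.16 (TMM, filterByExpr, robust quasi-likelihood F test, no covariate). The corrected fit used spline offsets on GC content and length. Alternatives were other scalings and filters, DESeq2 1.42.0, limma 3.58.1 on counts (voom) and on log2 FPKM, a replicate block and leaving out libraries. The model was tested on simulated counts. Replicates differed beyond sampling noise (chi-square per degree of freedom 23.1 to 38.4). All kinesins were accounted for; from each other list, CENPE, STARD9, KIFAP3, KLC1, KLC2 and CKAP5 and up to 4 called genes with the largest change and at least 1 CPM in the higher group were named. A gene that this rule names is not reported here. NUMA1, PTPRC, PECAM1, KRT5, KLC3, KLC4 and DYNC1LI1 were named after their values were seen. Members, roles and lists were chosen with earlier results of these data known.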

Additional observations from a re-analysis of the deposited data

How the results depend on the processing

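Over up to 22 other settings a kinesin, 20 of the 37 tested kinesins kept both sign and side of the threshold in every one that tested them. In 10 a call was gained, lost or turned. The sign changed in 12, of which 3 (KIF22, KIFC1, KIFC2) had been called and 9 had not. Mitotic members called lower and transport members called lower stayed within 1.5 times of 10 and 7 in every setting. Mitotic members called higher numbered 0 in place of 2 on unfiltered log2(FPKM + 1) and with GC and length correction, GC correction alone, or the replicate block with GC and length correction. The mitotic median was -0.79 on log2(FPKM + 0.1), -0.50 on unfiltered log2(FPKM + 1), -0.42 with GC and length correction, -0.42 with the replicate block added to it, and -0.39 with GC correction alone. Transport members called higher numbered 2 in place of 4 in all 3 FPKM fits. The transport median was -0.35 with a mean of at least 1 CPM, -0.37 on log2(FPKM + 1), -0.42 on log2(FPKM + 0.1), and -0.42 to -0.13 with 1 library left out.

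With GC and length correction, the replicate block added to it, and GC correction alone, in that order, values that turned sign were -0.11, -0.11 and -0.11 for KIF22, -0.097, -0.097 and -0.063 for KIFC1 and -0.031, -0.029 and -0.063 for KIFC2 among called genes. Among genes not called they were -0.12, -0.12 and -0.29 for KIFC3, -0.19, -0.19 and -0.20 for KIF18B, -0.175, -0.17 and -0.24 for KIF3C, and 0.40, 0.35 and 0.42 for KIF27. The cause was not tested. The replicate numbers are not said to pair libraries. Deviations of same-numbered libraries correlated at 0.0212, 0.0766 and 0.114, each library best with its own number (6 of 6), and the replicate block called 8653 genes in place of 8808 and moved no kinesin's call. Levels below 1 CPM are too low for firm statements.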
